A study of Mus musculus with 40 samples.

Results

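The genes described here encode potassium channel subunits, measured in the nucleus accumbens of 40 C57BL/6J mice, 1 sequencing library per mouse. They were chosen by name from the deposited expression table: symbols made of Kcn, a family letter from a to v and a number, without Kcnj13, that reached 1 TPM in 5 or more of the 40 libraries. TPM is a share of a library, by definition adjusted for transcript length and scaled so that each library adds up to 1000000. The values were read as TPM from their column sums alone, which do not show whether a length adjustment was made. The pattern matched 82 names, of which Kcnj13 was left out by the rule and Kcnq1ot1, an antisense non-coding RNA rather than a channel subunit, was set aside. Of the remaining 80 subunit genes, 67 passed the level rule, among 15196 genes of the table that passed it. The rule itself uses names and levels, not differences between groups.

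The 8 groups held 5 mice each. Saline and cocaine were each tested in intact males, in intact females, and in females whose ovaries had been removed and that received either placebo or estradiol. The daily cocaine dose was 10 mg/kg on the first and last of 7 days and 20 mg/kg on those between, and the labels do not say when after it the tissue was taken. All mice had been handled for 3 days. Ovariectomy removes the main source of estradiol, which the estradiol groups then received, by a route and dose the labels do not give. Intact mice carry animal numbers 61 to 80 and ovariectomized mice 121 to 140. Comparisons between them mix surgery with anything else that differs between these number ranges, and these cannot be told apart.

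Potassium channels let potassium leave the cell and so set the resting potential, the shape of the action potential and the interval between spikes. Voltage-gated subunits (Kcna, Kcnb, Kcnc, Kcnd, Kcnh and Kcnq) assemble as tetramers and open on depolarization, inward rectifiers (Kcnj) hold the membrane near rest, two-pore subunits (Kcnk) carry leak current, and channels of the SK and Slo type (Kcnn, Kcnt, Kcnu) open mostly on calcium or sodium entry, except Kcnu1, which responds to alkaline pH and voltage. Subunits of the Kcne, Kcnf, Kcng, Kcns and Kcnv families carry no current alone and modify the others. In the accumbens most neurons are medium spiny projection neurons, which are known for a very negative resting potential held by inward rectifiers and for A-type current that delays their first spike.

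The label of the tissue was checked against markers of striatal projection neurons. Of 14 listed genes 13 were found, all above 0 in at least some libraries, among them Penk (proenkephalin) at a median of 1821 TPM and Ppp1r1b (the phosphoprotein DARPP-32) at 1256 TPM. Markers of cortical excitatory neurons, which the accumbens should lack, varied widely between mice, with the summed level of 10 genes running from 15.3 to 1044 TPM. The library labelled male cocaine 69 had Xist, the RNA of the inactive X chromosome, at 237 TPM. The other 4 male cocaine libraries had 0.681 to 1.78 TPM. Intact female saline mice had 80.6 to 308 TPM, so the level in library 69 lay in the female range. Its description code, 69-MS, also reads as male saline where its title says male cocaine. It was kept under its title. In 4 libraries the median correlation with all others was under 0.93: mouse 67 (male, cocaine), mouse 137 (placebo, saline) and mice 126 and 134 (estradiol, cocaine). The share of TPM in 87 ribosomal protein genes ranged from 7.90% to 33.2% of a library, and the summed level of the 67 channel genes from 487 to 2156 TPM. TPM holds no counts, so sequencing depth is unknown and no counting interval can be given. In bulk tissue, fewer cells of a type and less RNA per cell cannot be told apart.

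The promoters of Kcnd3 and Kcnj16 are shown first, because these genes had the smallest p-values among channel genes for estradiol in saline mice and for the estradiol by cocaine difference, described further on. Both comparisons use the same saline mice, so the 2 rankings are not independent. Each is the 250 bases before a RefSeq transcript start on build GRCm38.p6, plus strand, 5′ to 3′, with matches to GGTCA or its reverse complement TGACC in capitals, which is 1 arm of the oestrogen response element. Kcnd3 encodes the A-type channel subunit Kv4.3, and Kcnj16 encodes Kir5.1, which pairs with the Kcnj10 product in astrocytes.
Kcnd3 promoter, chr3:105451640-105451889: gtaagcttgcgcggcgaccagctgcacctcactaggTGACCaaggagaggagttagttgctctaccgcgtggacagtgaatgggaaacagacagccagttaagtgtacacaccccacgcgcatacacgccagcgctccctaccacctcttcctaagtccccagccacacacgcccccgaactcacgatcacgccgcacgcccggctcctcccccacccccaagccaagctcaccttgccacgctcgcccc
Kcnj16 promoter, first of 4 starts, chr11:110967783-110968032: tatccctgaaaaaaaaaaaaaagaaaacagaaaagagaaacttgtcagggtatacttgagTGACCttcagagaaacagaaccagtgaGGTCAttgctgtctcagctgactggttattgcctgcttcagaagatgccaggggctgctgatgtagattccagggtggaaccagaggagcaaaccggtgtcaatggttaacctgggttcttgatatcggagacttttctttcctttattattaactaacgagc
The Kcnd3 window held 1 such arm, 214 bases before the start, at 62.8% G and C. The first Kcnj16 window held arms at 190 and 163 bases before the start at 42.8% G and C, and the windows of its other 3 starts held none. The arm stood in 35.2% of all 32851 promoters of this length and in 25% of the 60 promoters matched to 46 of the 67 genes. The full site GGTCANNNTGACC was in 0 of those 60 promoters and in 21 (0.0639%) of all promoters. The AP-1 motif TGANTCA was in 1.67% of the channel promoters and 6.75% of all, and the cyclic AMP response motif TGACG in 16.7% and 17.8%; both strands were searched, and GGTCA lies within the full site. These matches are letters in a window and say nothing of binding.

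The channel genes spanned more than 2 orders of magnitude in level, and a few subunits carried much of the total. Averaged over the 8 group means, 2 of the 67 reached 100 TPM, 10 reached 50, 38 reached 10, and 20 stayed under 5. The median channel gene stood at 15.1 TPM, against 18.7 TPM for all tested genes. Of the 67 genes, 45 were at or above 1 TPM in all 40 libraries and 62 were above 0 in all of them. The 5 highest genes held 32.4% of the summed level. The labels name an AmpliSeq kit, an amplicon method that reads a short stretch of each transcript, so the order of levels between genes also depends on primers.

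Voltage-gated subunits made up 27 of the 67 genes, of 30 matched, and 50.9% of the summed mean level. Of the Kcnq genes, known for a slow current that limits repetitive firing, Kcnq5 was at 44.5 TPM and Kcnq3 at 27.0 TPM. Among the A-type Kcnd genes, which delay the first spike, Kcnd2 was at 72.7 TPM, Kcnd3 at 26.5 and Kcnd1 at 7.55. The fast Kcnc delayed rectifiers, known from fast-spiking interneurons, were led by Kcnc1 at 56.3 TPM, with Kcnc4 and Kcnc2 close together at 21.2 and 19.6 TPM. Kcna1 (54.4 TPM), Kcna6 (38.4), Kcna2 (37.8), Kcna4 (30.8), Kcna5 (26.5) and Kcna3 (12.1) made up the Shaker-type family, and Kcnb2, a delayed rectifier, was at 2.92 TPM. Kcnh3, an ELK channel, reached 61.2 TPM, whereas Kcnh8 of the same group averaged 0.671 TPM.

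Inward rectifiers gave 12 of 14 matched genes and 21.6% of the summed level. Kcnj4, the inward rectifier Kir2.3, stood at 145 TPM. Its group means ran from 127 TPM in ovariectomized estradiol cocaine mice to 156 TPM in ovariectomized placebo saline mice. Kcnj10, the astrocyte channel Kir4.1 that clears extracellular potassium, was at 77.1 TPM and its partner Kcnj16 at 13.6 TPM. The G protein-gated subunits were Kcnj9 (26.4 TPM), Kcnj3 (19.2), Kcnj6 (5.73) and Kcnj5 (1.47), and the pores of ATP-sensitive channels were Kcnj11 (23.6) and Kcnj8 (3.35), the latter known from vessel wall cells. Kcnj2 was at 24.8 TPM, Kcnj12 at 7.97 and Kcnj14 at 1.94.

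Two-pore subunits gave 11 of 14 matched genes and 11.8% of the level, led by Kcnk1 at 79.7 TPM and Kcnk2, a lipid- and stretch-sensitive leak channel, at 65.0 TPM. Kcnk9, an acid-sensitive leak channel, followed at 17.6 TPM, and Kcnk12, Kcnk7 and Kcnk5 were at 2.94, 1.14 and 0.538 TPM. Channels of the SK and Slo type gave 6 of 7 genes and 6.99% of the level, of which Kcnt1, a sodium-activated channel, held 63.5 TPM and the small-conductance channels Kcnn2, Kcnn3 and Kcnn1 held 20.3, 15.1 and 5.08 TPM. Kcnu1, known as the sperm channel Slo3, averaged 1.75 TPM. Modifier subunits gave 11 of 15 genes and 8.71% of the level, with Kcnf1 at 42.7 TPM, Kcnv1 at 31.9, Kcns2 at 22.1, Kcne1l at 14.9 and Kcng1 at 12.2.

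The 13 subunit genes under the level rule were Kcnn4, Kcne3, Kcne2, Kcnq1, Kcnk15, Kcnv2, Kcna10, Kcnk18, Kcnj15, Kcne1, Kcna7, Kcnj1 and Kcnk16. Just inside the rule were Kcnk5 and Kcnh8, at 1 TPM or more in 5 and 7 libraries, and just outside it Kcnn4 and Kcne3, in 3 libraries each. Kcnk16 was listed at 0 in every library.

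**Figure D1:**
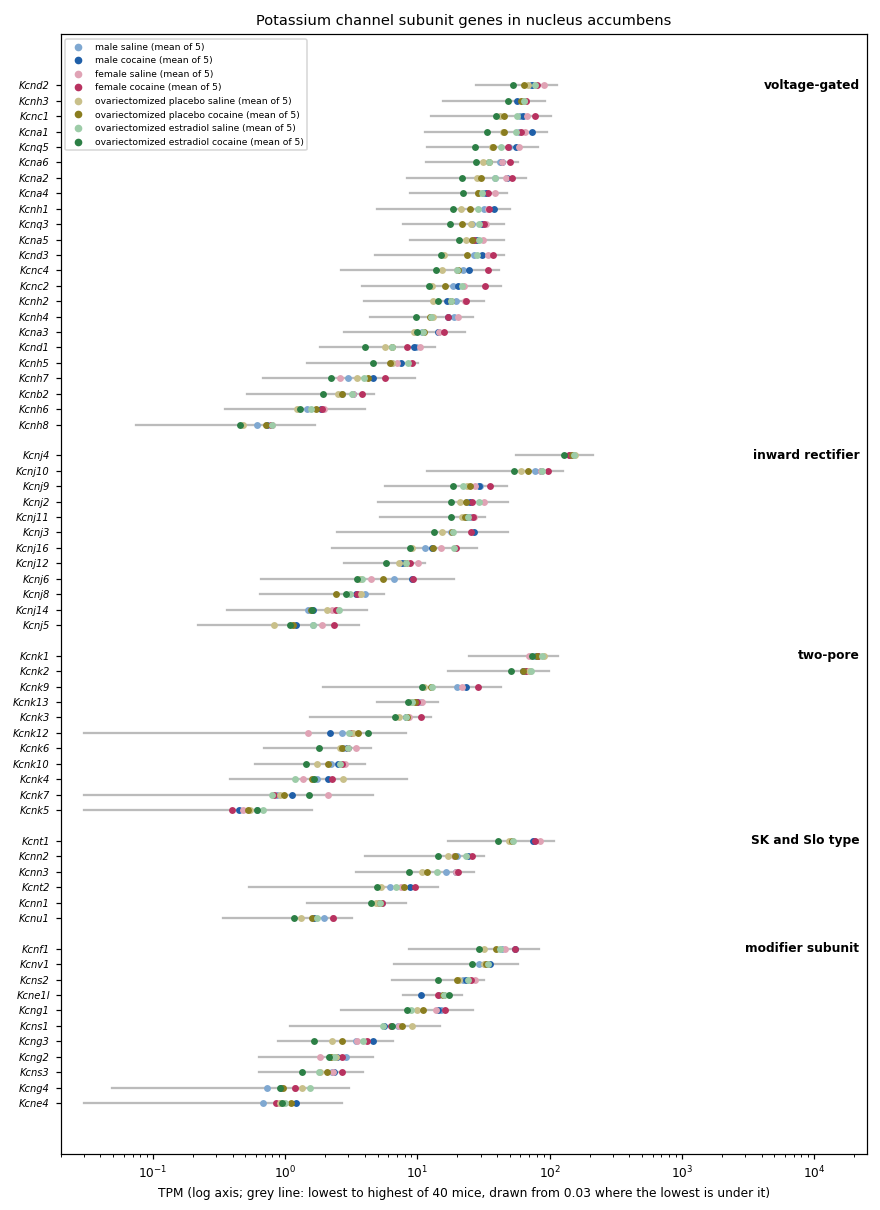
Levels of potassium channel genes in TPM on a log axis, by class, with group means of 5 mice as points and the range over 40 mice as grey lines. Kcnj4 at 145 TPM leads the inward rectifiers, and for most genes the group means lie within a narrow part of the range over mice.

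Differences between groups were tested with limma on log2(TPM + 0.5), in 1 model of all 40 mice with 8 group means, and p-values were adjusted over all 15196 genes (Benjamini-Hochberg), with a call at an adjusted p under 0.05. In this model 0 of the 67 channel genes passed in any of 14 comparisons or in the F test over the 8 groups. The median of all genes itself shifted between groups. Some differences below are also given relative to that median, as the difference minus the median difference of all tested genes. The others still hold the shift. That shift was -0.03 for cocaine in males, 0.03 in intact females, 0.15 in ovariectomized placebo and -0.56 in ovariectomized estradiol mice, and -0.10 on average over the 4 conditions. It was 0.13 and 0.19 for sex in saline and cocaine mice and 0.05 for the sex by cocaine difference. It was 0.23 and -0.49 for estradiol in saline and cocaine mice and -0.71 for the estradiol by cocaine difference. Against intact females it was -0.37 for placebo and -0.11 for estradiol in saline mice, and -0.24 for placebo in cocaine mice.

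In the F test over the 8 groups, 17 of the 67 channel genes (25.4%) had an unadjusted p under 0.05, near the 23.9% of all genes, and 0 passed adjustment against 0.224% of all genes (34). Ovariectomized estradiol cocaine mice had the lowest group mean for 56 of the 67 genes (83.6%, against 73.7% of all tested genes), and intact female cocaine mice the highest for 32 (47.8% against 36.5%). After the library median was subtracted, ovariectomized estradiol cocaine mice were lowest for 12 of the 67 (17.9%, against 19.5% of all tested genes). Intact female cocaine mice were then highest for 13 (19.4% against 10.5%). The ribosomal protein share was 18.3% ± 10.0 (SD, n = 5) in ovariectomized estradiol cocaine mice and 8.42% ± 0.621 in intact female cocaine mice, and its part in these orders was not tested. Among channel genes at 5 TPM or more, those with the largest ratio of highest to lowest group mean were Kcnc2, Kcnj6, Kcnk9, Kcnd1 and Kcnc4.

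Kcnd3 had the smallest p of any channel gene over the 8 groups (F = 4.13, unadjusted p = 0.00172, limma adjusted p = 0.114). It was called by the same F test once each library was centred on its median (adjusted p = 0.0333) and without the 4 least correlated libraries (adjusted p = 0.0328). It was the only channel gene called there, and the shares of all genes called are given at the end, with the dependence on processing. With the ribosomal protein share as covariate the F test did not call it (limma adjusted p = 0.211). Its values were 20.6, 32.4, 35.6, 37.2 and 43.5 TPM in female saline mice and 27.8, 32.5, 36.4, 43.0 and 45.4 TPM in female cocaine mice. They were 15.2, 18.7, 24.4, 34.3 and 42.2 TPM in male saline mice and 9.87, 34.7, 35.0, 36.8 and 38.3 TPM in male cocaine mice, the lowest being mouse 67. Intact groups thus overlapped one another. Ovariectomized placebo mice had 6.47, 13.4, 18.0, 19.5 and 21.3 TPM with saline and 18.3, 19.3, 20.3, 26.2 and 34.2 TPM with cocaine. Ovariectomized estradiol mice had 23.6, 24.7, 29.9, 31.5 and 31.8 TPM with saline and 4.79, 7.5, 20.2, 20.5 and 22.7 TPM with cocaine. All 5 estradiol saline mice lay above all 5 placebo saline mice and above all 5 estradiol cocaine mice.

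**Figure D2:**
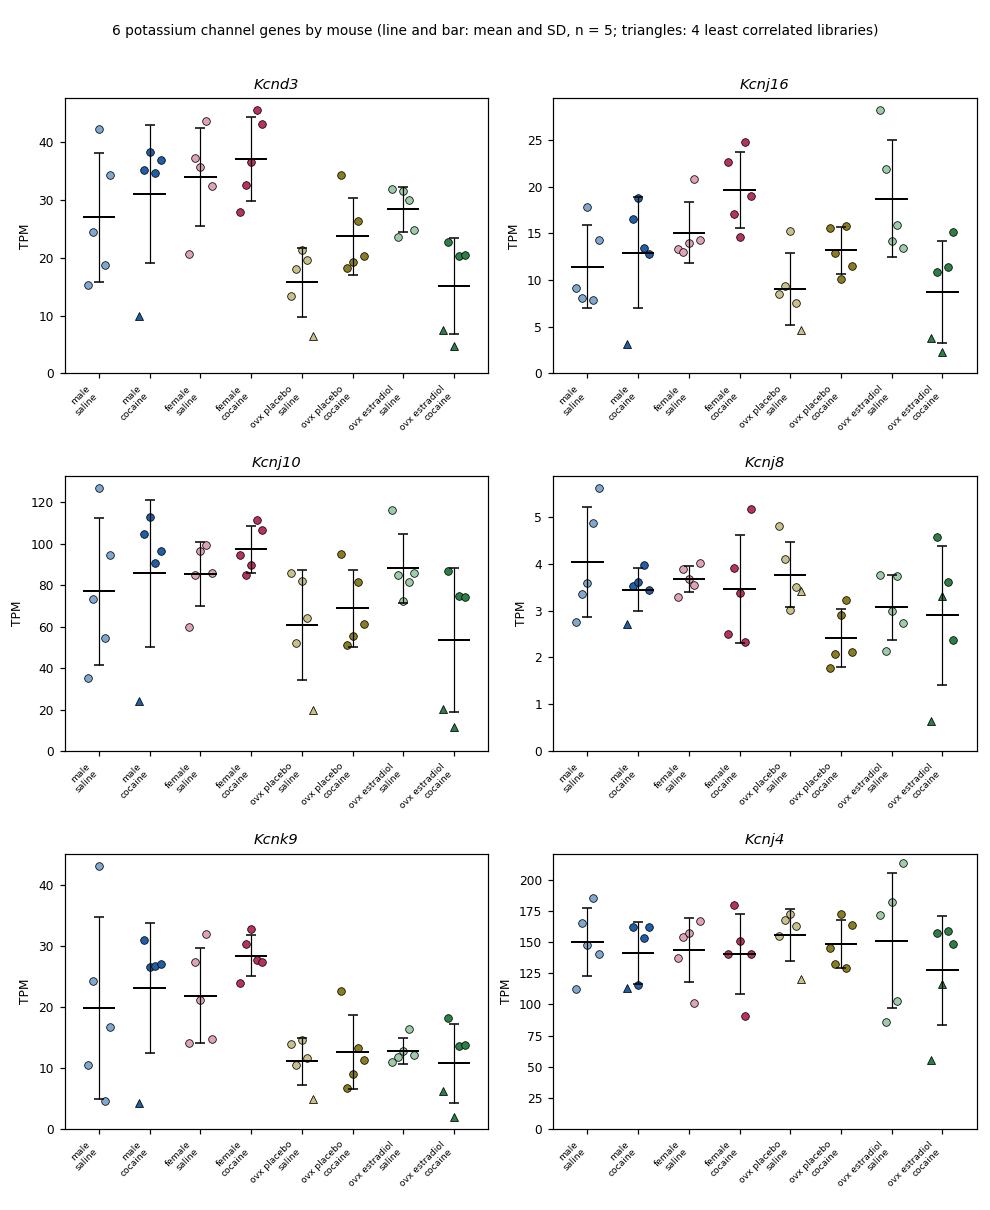
TPM of 6 channel genes in each mouse by group, with the mean and SD of 5 mice and the 4 least correlated libraries as triangles. Kcnd3 and Kcnj16 are higher in estradiol saline mice (means 28.3 and 18.7 TPM) than in placebo saline mice (15.7 and 9.05 TPM), and the triangles are the lowest mice of their groups for Kcnd3, Kcnj16 and Kcnj10.

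Estradiol was compared with placebo in ovariectomized saline mice to ask what hormone replacement alone does. Of the 67 channel genes 0 passed, as 0% of all genes did, and 3 (4.48%) had an unadjusted p under 0.05, against 2.48% of all genes. Kcnj16 was at 13.4, 14.2, 15.9, 21.9 and 28.2 TPM with estradiol and at 4.64, 7.54, 8.47, 9.37 and 15.2 TPM with placebo, so that only the highest placebo mouse reached the estradiol range. The log2 difference was 1.05 ± 0.38 (SE; 0.82 relative to the median gene; unadjusted p = 0.00895; limma adjusted p = 0.737). For Kcnd3, whose groups did not overlap, it was 0.92 ± 0.36 (0.70 relative; unadjusted p = 0.0153; limma adjusted p = 0.737). In a fit with array weights the log2 differences were smaller, at 0.55 for Kcnj16 and 0.59 for Kcnd3 (limma adjusted p = 0.432 for both). For both genes the lowest placebo mouse was mouse 137, 1 of the 4 least correlated libraries. Kcns1, a silent subunit that modifies other voltage-gated channels, was lower with estradiol at 5.47 ± 0.869 against 9.07 ± 3.21 TPM (log2 difference -0.64 ± 0.31, limma adjusted p = 0.737). Kcnc2 (0.76 ± 0.40) and Kcnk10 (0.50 ± 0.28) were next above 0, and Kcnk4 (-0.58 ± 0.42) was next below. The median gene itself lay above 0 here, so relative to it Kcns1 and Kcnk4 lay further below and Kcnc2 and Kcnk10 less far above.

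As classes, the channel genes lay close to the median gene: 56 of 67 lay above 0 and the channel median stood 0.01 above that of all genes. The class medians relative to all genes were 0.16 for SK and Slo type, 0.04 for voltage-gated, -0.01 for inward rectifier, -0.09 for two-pore and -0.17 for modifier subunits. Beside Kcnj16, which astrocytes carry, all 10 astrocyte markers were above 0 with estradiol, with a relative median of 0.29. Their summed level was 2734 to 3355 TPM in estradiol saline and 1296 to 2692 TPM in placebo saline mice, none of them at 0, and their part in the Kcnj16 difference was not tested. Kcnj10 itself differed by less, with 72.3, 81.4, 85.1, 85.7 and 116 TPM against 20.0, 52.1, 64.3, 81.8 and 85.7 TPM, ranges that overlap.

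In ovariectomized cocaine mice the order was the other way, with estradiol below placebo. Again 0 channel genes passed against 0% of all genes, and 5 (7.46%) had an unadjusted p under 0.05 against 15.7%. Those were Kcnt2, a sodium-activated channel (-1.01 ± 0.45), Kcnj16 (-0.83 ± 0.38), Kcnd3 (-0.81 ± 0.36), Kcnd1 (-0.72 ± 0.35) and Kcnj12 (-0.53 ± 0.25). All had a limma adjusted p = 0.244. Of the 67 genes 63 were below 0, with the channel median 0.01 below that of all genes. Relative to the median gene Kcnd3 was at -0.33 and Kcnj16 at -0.34, and without the 4 least correlated libraries the log2 differences were -0.12 and -0.07. Without those libraries most channel genes lay above 0, so the order of the channel genes as a whole did not hold. Kcne1l (0.10 ± 0.25), Kcnk7 (0.19 ± 0.57) and Kcnj8 (0.09 ± 0.27) lay above 0.

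The cocaine response of estradiol mice was then set against that of placebo mice. This contains the estradiol against placebo difference of the saline mice with its sign reversed, so the 2 comparisons share mice and are not independent. Of the 67 channel genes 0 passed, as 0% of all genes did, and 19 (28.4%) had an unadjusted p under 0.05, all below 0, against 31.3% of all genes. Kcnj16 had the smallest p (-1.87 ± 0.54, -1.16 relative to the median gene, unadjusted p = 0.00122, limma adjusted p = 0.156), followed by Kcnd3 (-1.74 ± 0.51, -1.02 relative, unadjusted p = 0.00166, limma adjusted p = 0.156). Both genes were higher with cocaine in placebo mice (0.59 ± 0.38 and 0.64 ± 0.36) and lower with cocaine in estradiol mice (-1.28 ± 0.38 and -1.10 ± 0.36). Without the 4 least correlated libraries the cocaine differences were 0.39 for Kcnj16 and 0.36 for Kcnd3 in placebo mice and -0.53 and -0.41 in estradiol mice. The difference between the responses was then -0.92 for Kcnj16 and -0.77 for Kcnd3 (limma adjusted p = 1 for both), and the shift of the median gene was -0.02. Kcnk10 (-0.96 ± 0.40), Kcnc2 (-1.35 ± 0.57), Kcnt2 (-1.49 ± 0.64) and Kcnj10 (-1.37 ± 0.60) came next. Relative to the median gene these were, in that order, -0.24, -0.64, -0.78 and -0.66. Kcnk4 (0.54 ± 0.59), Kcnj8 (0.35 ± 0.38) and Kcns1 (0.19 ± 0.44) lay above 0. Relative to the median gene they were at 1.26, 1.06 and 0.90, about as far from it as Kcnj16 and Kcnd3. Without the 4 least correlated libraries their log2 differences were 1.18, 0.74 and 0.61.

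Kv4 channels work with cytoplasmic KChIP proteins (Kcnip1 to Kcnip4) and with the membrane partners Dpp6 and Dpp10, which speed their gating. In the same comparison these partners were at -1.37 ± 0.45 for Kcnip1, -0.80 ± 0.46 for Kcnip2, -0.72 ± 0.42 for Kcnip3, -1.47 ± 0.47 for Kcnip4, -1.42 ± 0.55 for Dpp6 and -1.60 ± 0.49 for Dpp10. Relative to the median gene they were, in that order, -0.66, -0.09, -0.01, -0.76, -0.71 and -0.89. All 6 failed adjustment, the smallest limma adjusted p being 0.156. Of 19 tested auxiliary and other potassium channel genes, which include these 6, 0 passed in any of the 14 comparisons. Here 6 of the 19 had an unadjusted p under 0.05, near the share of all genes (31.3%), with a relative median of -0.07. In saline mice, estradiol against placebo gave 0.69 ± 0.32 for Kcnip1, 0.25 ± 0.33 for Kcnip2, 0.07 ± 0.29 for Kcnip3, 0.72 ± 0.33 for Kcnip4, 0.64 ± 0.39 for Dpp6 and 0.84 ± 0.35 for Dpp10. Relative to the median gene these were, in that order, 0.47, 0.03, -0.16, 0.49, 0.41 and 0.62, and the smallest limma adjusted p was 0.737. Dpp10 was at 95.3 ± 9.12 TPM with estradiol and 55.9 ± 19.6 TPM with placebo. Astrocyte markers had a relative median of -0.42 in the comparison of cocaine responses, with 0 of 10 above 0, and their part was not tested.

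Cocaine was compared with saline within each condition. In ovariectomized estradiol mice 0 of 67 channel genes passed against 0% of all genes, while 21 (31.3%) had an unadjusted p under 0.05, all lower with cocaine, against 41.7% of all genes. Voltage-gated genes were below 0 in 27 of 27 cases with a median of -0.69, and inward rectifiers in 12 of 12 with a median of -0.55, where all genes had -0.56. Two-pore and modifier genes had medians of -0.36 each. Beside Kcnj16 and Kcnd3, the smallest p-values were those of Kcnh5, an EAG channel (-0.95 ± 0.31), Kcns2 (-0.85 ± 0.31) and Kcna2, a channel of axons and their nodes (-1.0 ± 0.37). The limma adjusted p of all 5 was 0.0946. Kcnh5 was at 1.45, 2.44, 5.85, 6.2 and 7.23 TPM with cocaine and 5.44, 8.12, 8.89, 9.59 and 10.1 TPM with saline, ranges that overlap. Kcna2 was at 8.34, 8.90, 27.2, 29.0 and 35.6 TPM against 24.1, 36.1, 41.2, 44.9 and 45.2 TPM. The 2 lowest cocaine mice are the least correlated libraries, with ribosomal protein shares up to 33.2%. Without cocaine mouse 128, 136 or 140 alone, 13, 20 or 21 channel genes were called lower, where 23.8%, 40.2% or 38.8% of all genes were called. Without the 4 least correlated libraries 0 channel genes were called and 1 had an unadjusted p under 0.05. The share of all genes in that last fit is not reported here, so its counts cannot be read as particular to channel genes.

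In ovariectomized placebo mice 0 channel genes passed against 0% of all genes, and 1 (1.49%) had an unadjusted p under 0.05 against 0.823%. That gene was Kcnj8, the vessel wall pore of ATP-sensitive channels, at 1.78, 2.07, 2.12, 2.91 and 3.21 TPM with cocaine and 3.01, 3.42, 3.49, 4.10 and 4.80 TPM with saline. Only the highest cocaine mouse reached the saline range, and the log2 difference was -0.56 ± 0.27 (-0.70 relative, unadjusted p = 0.0439, limma adjusted p = 0.996). The 9 vessel wall markers had a relative median of 0.01 in this comparison, with 6 of 9 above 0. Kcnd3 and Kcnj16 (above), Kcnt2 (0.60 ± 0.45) and, on the other side, Kcnj14 (-0.37 ± 0.32) and Kcnk4 (-0.33 ± 0.42) followed.

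In intact males 0 channel genes passed against 0% of all genes, and 0 had an unadjusted p under 0.05 against 1.02%. The smallest p belonged to Kcne1l, an X-linked modifier, at 10.7 ± 2.55 TPM with cocaine and 14.6 ± 2.83 TPM with saline (-0.44 ± 0.25, unadjusted p = 0.0852). Kcns1 (-0.30 ± 0.31) and Kcnu1 (-0.21 ± 0.27) were next below 0, and Kcne4 (0.59 ± 0.41), Kcna3 (0.49 ± 0.42) and Kcng3 (0.42 ± 0.37) above. Voltage-gated genes were above 0 in 22 of 27 cases, with a relative median of 0.12, and the channel median lay 0.10 above that of all genes. The 10 cortical excitatory markers had a relative median of 0.48 in this comparison, and their part was not tested.

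In intact females 0 channel genes passed against 0% of all genes, and 0 had an unadjusted p under 0.05 against 0.954%. Kcnc4, a fast delayed rectifier, was at 25.5, 28.9, 36.4, 37.6 and 41.1 TPM with cocaine and 13.5, 14.8, 21.1, 22.1 and 27.8 TPM with saline, with 1 saline mouse inside the cocaine range (0.78 ± 0.42, unadjusted p = 0.0703). Kcnh7, an ERG channel (0.86 ± 0.47), and Kcnj6 (0.86 ± 0.52) came next, with Kcnk7 (-1.0 ± 0.57), Kcnj12 (-0.21 ± 0.25) and Kcnd1 (-0.28 ± 0.35) below 0. Kcnk7 averaged 1.14 TPM and was at 0 in some libraries. Cortical excitatory markers had a relative median of 1.17 here, with 9 of 10 above 0, and striatal projection markers -0.35, and their part was not tested.

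On average over the 4 conditions, 0 channel genes passed against 0% of all genes and 0 had an unadjusted p under 0.05 against 1.1%. Kcnj8 had the smallest p (-0.26 ± 0.13, unadjusted p = 0.0555, limma adjusted p = 0.899), and Kcnk2 (-0.23 ± 0.15) and Kcnj12 (-0.17 ± 0.12) followed. Kcnj6 (0.33 ± 0.26) and Kcnk4 (0.14 ± 0.21) lay above 0. For Kcnj4 the 95% interval was -0.36 to 0.13. In a single condition the median channel gene had a 95% interval reaching 0.73 to either side of its log2 difference.

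**Figure D3:**
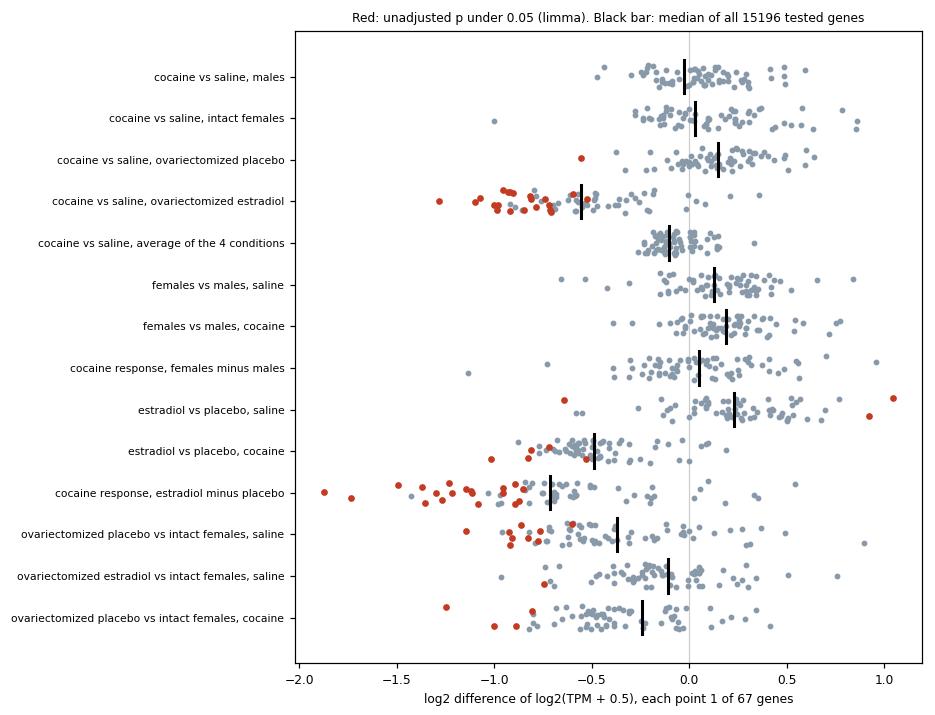
Log2 differences of the 67 channel genes in 14 comparisons, 1 point per gene, red where the unadjusted p was under 0.05, with the median of all 15196 genes as a black bar. The points follow the bar, which lies at -0.56 for cocaine in ovariectomized estradiol mice and at -0.71 for the estradiol by cocaine difference.

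Females were compared with males at each drug state. In saline mice 0 channel genes passed, against 0.0329% of all genes (5), and 0 had an unadjusted p under 0.05 against 1.41%. Kcng2 (-0.54 ± 0.32, unadjusted p = 0.0987), Kcnk12 (-0.66 ± 0.61) and Kcnj6 (-0.42 ± 0.52) were the 3 genes with the smallest p below 0, and Kcna3 (0.65 ± 0.42), Kcnk7 (0.84 ± 0.57) and Kcng4 (0.52 ± 0.37) those above. The median channel gene lay 0.03 above the median of all genes. In cocaine mice again 0 passed against 0.0329% of all genes, and 0 had an unadjusted p under 0.05 against 1.36%. Kcnj16 came closest, at 14.6, 17.1, 19.0, 22.6 and 24.8 TPM in females and 3.19, 12.7, 13.4, 16.6 and 18.8 TPM in males, ranges that overlap (0.75 ± 0.38, unadjusted p = 0.0547). It was 0.93 without the library labelled male cocaine 69 and 0.34 without the 4 least correlated libraries. Kcnc2 (0.77 ± 0.40) and Kcnj5 (0.72 ± 0.41) followed, with Kcne4 (-0.39 ± 0.41), Kcnk7 (-0.30 ± 0.57, but 0.10 without mouse 67) and Kcna1 (-0.16 ± 0.37) below 0. For the difference between the sexes in cocaine response, 0 passed against 0% of all genes and 0 had an unadjusted p under 0.05 against 0.665%, the smallest p being that of Kcnk7 (-1.13 ± 0.80, unadjusted p = 0.164). Kcne4 (-0.73 ± 0.58) and Kcnq5 (-0.39 ± 0.49) were next below 0, and Kcng2 (0.54 ± 0.45), Kcnc4 (0.70 ± 0.59) and Kcnk12 (0.96 ± 0.86) above.

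Ovariectomized and intact females differ in surgery, hormone and range of animal numbers together. With saline, ovariectomized placebo against intact females gave 0 channel genes that passed against 0% of all genes, and 9 (13.4%) with an unadjusted p under 0.05, all lower, against 19.3%. Kcnd3 had the smallest p, with placebo values of 6.47 to 21.3 TPM against 20.6 to 43.5 TPM in intact females (-1.15 ± 0.36, -0.77 relative, unadjusted p = 0.00306, limma adjusted p = 0.247). Its relative Kcnd1 was at 1.97, 5.20, 5.92, 6.04 and 9.20 TPM against 5.34 to 13.5 TPM (-0.91 ± 0.35, limma adjusted p = 0.247). Kcnh2, an ERG channel (-0.86 ± 0.37), Kcnt1 (-0.83 ± 0.36), Kcnn3 (-0.92 ± 0.41) and Kcnj5 (-0.92 ± 0.41) followed, and Kcnk1 (0.37 ± 0.24), Kcnk12 (0.89 ± 0.61) and Kcnk4 (0.49 ± 0.42) lay above 0. The channel median was 0.11 below that of all genes. All 3 Kcnd genes were below 0, with a relative median of -0.53.

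Estradiol against intact females with saline gave 0 channel genes that passed against 0% of all genes, and 1 (1.49%) with an unadjusted p under 0.05 against 4.09%. That gene was Kcnt1, at 27.1, 43.2, 46.3, 69.0 and 79.4 TPM against 54.5, 88.7, 90.9, 94.9 and 95.7 TPM in intact females (-0.74 ± 0.36, limma adjusted p = 0.999). Kcnd3, by contrast with the placebo comparison, was at -0.23 with a 95% interval from -0.96 to 0.51, and these comparisons share the intact female mice. Kcnh4 (-0.74 ± 0.39) and Kcnd1 (-0.67 ± 0.35) came next below 0, and Kcnk12 (0.76 ± 0.61), Kcnk1 (0.30 ± 0.24) and Kcnh7 (0.51 ± 0.47) above.

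With cocaine, ovariectomized placebo against intact females gave 0 channel genes that passed against 0% of all genes, and 4 (5.97%) with an unadjusted p under 0.05, all lower, against 5.63%. Kcnk9, the acid-sensitive leak channel, was at 6.78, 9.05, 11.3, 13.3 and 22.6 TPM in placebo and 23.9, 27.4, 27.7, 30.4 and 32.7 TPM in intact females, without overlap (-1.25 ± 0.48, -1.0 relative, unadjusted p = 0.0132, limma adjusted p = 0.696). Kcnc2 was at 11.1, 11.9, 15.2, 18.5 and 24.6 TPM against 25.3, 28.6, 29.0, 35.3 and 42.7 TPM, also without overlap (-1.0 ± 0.40, limma adjusted p = 0.696). Kcnc1 was at 32.3 to 37.5 TPM in 4 placebo mice and 85.7 TPM in the fifth, against 65.3 to 90.6 TPM (-0.89 ± 0.36). Kcna2 followed at -0.81 ± 0.37, and Kcns1 (0.29 ± 0.31), Kcne4 (0.34 ± 0.41) and Kcnk12 (0.42 ± 0.61) lay above 0. Voltage-gated genes were below 0 in 27 of 27 cases with a relative median of -0.25, and the 4 Kcnc genes had a relative median of -0.60. With a model of these 10 mice alone 10 channel genes were called, all lower, among 1520 of all genes, and with array weights over the 40 mice 35 were called, 34 of them lower, among 6431.

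Across the 3 comparisons with intact females, which share control or treated mice, the 14 tested alpha subunits of sodium and calcium channels had relative medians of -0.48 for placebo saline, -0.43 for estradiol saline and -0.50 for placebo cocaine mice. The channel genes had -0.11, -0.07 and -0.17. Endothelial markers moved in the same comparisons, with 0 of 8 above 0 in each and relative medians of -0.54, -1.0 and -0.65. Their summed level was 153 to 270 TPM in female saline mice, 134 to 293 in female cocaine, 86.2 to 209 in placebo saline, 71.3 to 171 in placebo cocaine and 78.9 to 151 in estradiol saline mice, with none of the 8 at 0 in all libraries. Their part in the channel differences was not tested.

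**Figure D4:**
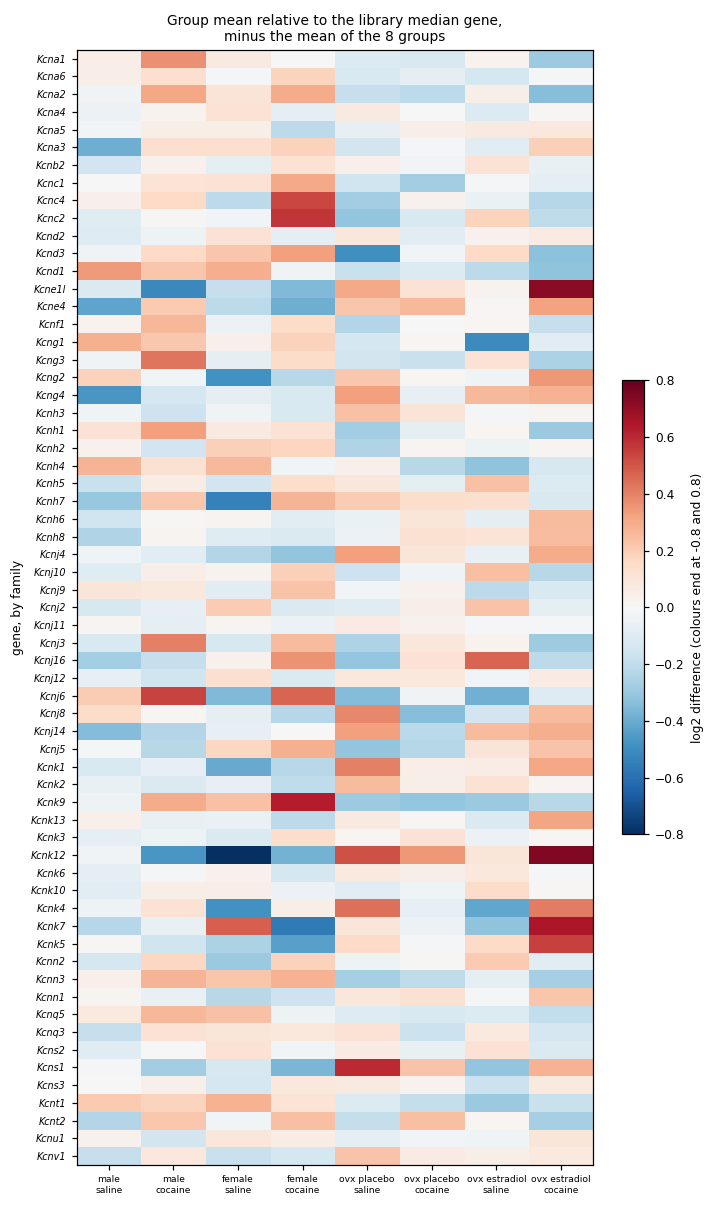
Group means of channel genes relative to the median gene of each library, minus the mean of the 8 groups, in log2 units from blue (lower) to red (higher), ordered by family. Kcnd3 is lowest in placebo saline mice, and Kcnc2, Kcnc4 and Kcnk9 are high in intact female cocaine mice.

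Some channel genes are known from a single cell type, and their levels were compared with marker scores over the 40 mice, both centred on the library median. A score is the mean log2(TPM + 0.5) of a list without any Kcn gene, and 7 pairs were computed, with permutation p-values from 100000 resamples, adjusted over the 7. Kcnj4 followed striatal projection neuron markers most closely (Pearson r = 0.69, adjusted permutation p = 7e-05; Spearman rho = 0.66, permutation p = 2e-05, adjusted 0.00014). The unadjusted p for r was 1e-05, which is the smallest value that 100000 resamples allow. The relation held without the 2 libraries farthest from the median score (r = 0.64), in the intact mice alone (r = 0.66) and in the ovariectomized mice alone (r = 0.67). Kcnj16 followed astrocyte markers (r = 0.53, permutation p = 0.00035, adjusted permutation p = 0.000817; rho = 0.48, permutation p = 0.00187, adjusted 0.00436), with 0.33 without the 2 farthest libraries, 0.65 within intact and 0.61 within ovariectomized mice. Kcnj10 did so more loosely (r = 0.43, permutation p = 0.00477, adjusted permutation p = 0.00835; rho = 0.35, permutation p = 0.0251, adjusted 0.0352). Its relation rested on the 2 farthest libraries (r = 0.30, permutation p = 0.0665 without them) and on ovariectomized mice (r = 0.71, against 0.26 within intact mice).

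Kcnv1, a silent subunit of cortical neurons, followed cortical excitatory markers (r = 0.43, permutation p = 0.00606, adjusted permutation p = 0.00848; rho = 0.40, permutation p = 0.0116, adjusted 0.0204), with r = 0.43 without the 2 farthest libraries, 0.72 within intact and 0.25 within ovariectomized mice. Kcne2, a choroid plexus subunit under the level rule, followed choroid plexus markers (r = 0.58, permutation p = 0.0001, adjusted permutation p = 0.00035; rho = 0.49, permutation p = 0.0015, adjusted 0.00436), with 0.44 without the 2 farthest, 0.40 within intact and 0.73 within ovariectomized mice. Kcnj8 and vessel wall markers gave r = 0.25 (permutation p = 0.118, adjusted permutation p = 0.138; rho = 0.23, permutation p = 0.154, adjusted 0.179; r = 0.17 without the 2 farthest, 0.14 within intact, 0.36 within ovariectomized mice). Kcnc1 and interneuron markers gave r = -0.09 (permutation p = 0.58, adjusted permutation p = 0.58; rho = -0.14, permutation p = 0.399, adjusted 0.399; r = -0.08 without the 2 farthest), with -0.48 within intact and 0.21 within ovariectomized mice. The interneuron list mixed Pvalb with other genes, among them Gad1, Gad2 and Cck, so its score cannot single out fast-spiking interneurons. Of the 7 pairs, 5 passed the threshold.

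**Figure D5:**
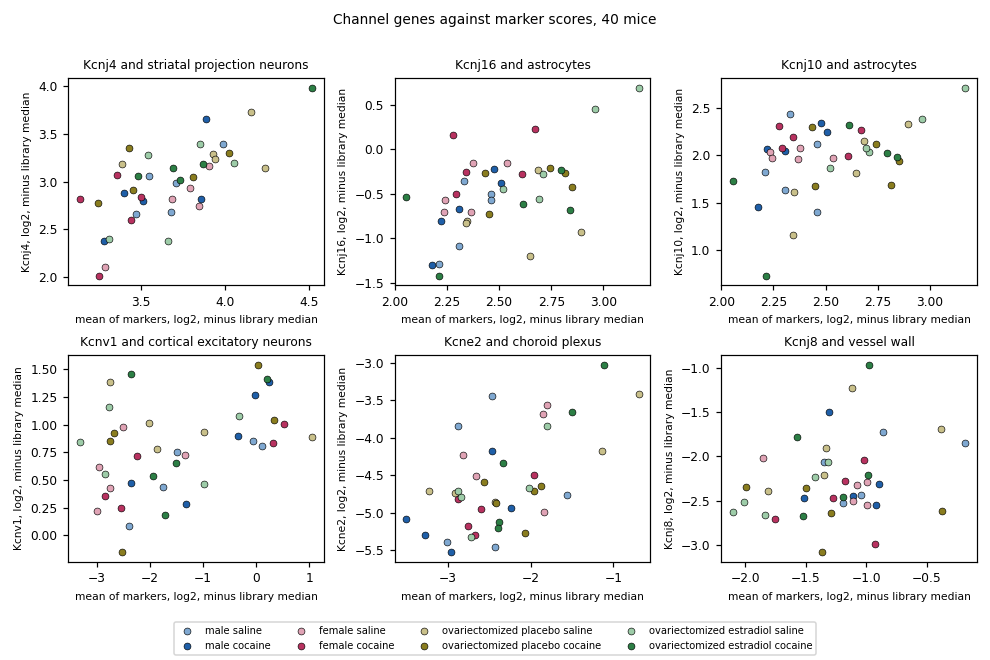
Level of 6 channel genes against the marker score of a cell type in 40 mice, both as log2(TPM + 0.5) minus the library median, coloured by group. The points rise most steadily for Kcnj4 and striatal projection neurons (r = 0.69) and least for Kcnj8 and vessel wall (r = 0.25).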

How the data were processed

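RNA from accumbens punches of 40 mice was sequenced with an AmpliSeq library kit, per the labels' protocols. The deposited table is named for FPKM, but every column of it adds up to 1000000, so the deposited values were read as TPM. The sums cannot tell length-adjusted values from unadjusted ones. The submitters' processing notes name build mm10, limma and DESeq2, the aligners TopHat2 2.0.9 and Bowtie2 2.1.0.0, and Cuffdiff 2.2.0 with Cufflinks 2.2.0, without giving each one's role. All 40 columns matched a sample title, and groups were taken from the titles. Among 23349 entries 27 had gene names turned into dates and were left out; 15196 of 23322 named genes reached 1 TPM in at least 5 libraries and were tested.

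Values were taken as log2(TPM + 0.5) and fitted with limma 3.58.1 in R 4.3.3 (trend and robust options, 8 group means), after a test on simulated data. After ±, log2 differences carry the model's SE and TPM means the SD of 5 mice; tests are two-sided. A fold change on this scale understates the change of low genes. Replicates carry separate animal numbers; nothing else says how independent they are. The channel genes and gene lists were chosen with earlier results of these data known. Named channel genes are the called ones, the 3 with the smallest p in each direction of each comparison, the 15 highest, the highest of each family, the 7 of the marker pairs and the 5 with the largest ratio of group means; others appear as part of a family or class, and a few channel genes that enter the counts are not reported here by name. Alternatives varied the pseudocount, the filter, centring, quantile normalization, the ribosomal protein share as covariate, array weights, the samples in the model and each mouse in turn. Scripts used Python 3.11.15, and promoters came from RefSeq (GRCm38.p6).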

Additional observations from a re-analysis of the deposited data

Results flagged for a closer look

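In 8 channel genes, each of the 8 groups of 5 mice was searched for a mouse whose gap to its nearest neighbour took up an unusually large part of the group's range (above Dixon's 95% critical value), and 5 of 64 groups met this, where chance flags about 1 in 20. The 8 genes include Kcnd2, Kcnd3, Kcna2, Kcnj10 and Kcnj16, and are not the same set as the genes listed above mouse by mouse. In male cocaine mice, mouse 67 stood apart for Kcnd3 at 9.87 TPM, with the others at 34.7 to 38.3, and for Kcnj10 at 24.3 TPM, with the others at 90.7 to 113; this is 1 of the 4 least correlated libraries. In ovariectomized placebo saline mice, mouse 137, another of those 4, was low for Kcna2 at 11.5 TPM against 29.2 to 35.7. In male saline mice, mouse 61 was low for Kcnd2 at 35.4 TPM against 74.6 to 90.1. In female saline mice, mouse 77 was high for Kcnj16 at 20.8 TPM against 13.0 to 14.3.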

How the results depend on the processing

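The count of 0 called channel genes stayed at 0 in each of the 14 comparisons and in the F test under other pseudocounts, other filters, the ribosomal covariate, limma without its trend and robust options and without the library labelled male cocaine 69. The F test called 1 channel gene, Kcnd3, with each library centred, with quantile normalization and without the 4 least correlated libraries, also when these were centred as well (added after seeing the data), against 1.1%, 1.88%, 2.99% and 1.77% of all genes, and 44 with array weights (60.1% of all genes). Array weights also called 28 in ovariectomized placebo against intact females with saline (44.8% of all genes), 3 in estradiol against intact females (14.8%) and 35 in placebo against intact females with cocaine (42.3%), where a model of the compared groups alone called 10 (10.0%); the cause was not tested. Leaving out 1 mouse at a time gave 0 to 21 calls for cocaine in ovariectomized estradiol mice (up to 40.2% of all genes) and 0 to 17 in the F test (17 without male cocaine 67 and 1 without female saline 64, with 25.7% and 2.8% of all genes), and 0 elsewhere. With no filter on low values the channel median for the estradiol by cocaine difference moved to -0.19 relative to all genes. Of the log2 differences of named genes, 2167 recomputed values kept direction and side of the threshold, 20 passed the threshold and 28 changed sign. Kcnk7, near 1 TPM, changed sign with the ribosomal covariate, with array weights, without the 4 least correlated libraries and without them and centred, to -0.53, -0.77, -0.57 and -0.53 for cocaine in estradiol mice (leaving out 1 mouse, -0.023 to 0.74), to 0.10, 0.071, 0.10 and 0.15 for sex in cocaine mice (-0.67 to 0.10), and to -0.61, -1.60, -0.74 and -0.80 for estradiol in cocaine mice (-0.19 to 0.57). For estradiol in cocaine mice, array weights gave 0.086 for Kcnt2 and 0.21 for Kcnj16. Kcnu1 for cocaine in males was 0.034 without the 4 libraries. Leaving out 1 mouse also crossed 0 for Kcnu1 in males (-0.39 to 0.034), Kcnk12 in placebo against intact females with cocaine (-0.19 to 0.70), Kcnk4 for cocaine in placebo (-0.56 to 0.13) and estradiol mice (-0.070 to 0.49), Kcne1l for cocaine in estradiol mice (-0.024 to 0.34) and Kcnj8 for estradiol in cocaine mice (-0.10 to 0.44). Relations lost their call for Kcnj10 and astrocytes without the 2 farthest libraries (0.30) and in intact mice (0.26), for Kcne2 and choroid plexus in intact mice (0.40) and for Kcnv1 and cortical neurons in ovariectomized mice (0.25). For Kcnc1 and interneurons r was 0.62 without centring, -0.48 in intact and 0.21 in ovariectomized mice. No paired analysis was possible because the labels number mice individually and no number recurs across groups.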

Other observations

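Kcnq1ot1, the antisense RNA that the name pattern also matched, averaged 1.42 ± 0.625 TPM in ovariectomized estradiol saline, 0.685 ± 0.305 in estradiol cocaine, 1.02 ± 0.338 in placebo saline and 1.82 ± 1.20 TPM in placebo cocaine mice (SD, n = 5). The estradiol by cocaine difference was -1.13 ± 0.41 on the log2 scale and did not pass adjustment over all genes (limma adjusted p = 0.156). Abcc9, the sulfonylurea receptor that vessel wall cells join to the Kcnj8 pore, was at 1.32 ± 0.491 TPM in ovariectomized placebo saline and 3.73 ± 1.49 TPM in intact female saline mice (-1.17 ± 0.35, -0.80 relative to the median gene, limma adjusted p = 0.247). It was chosen after its values were seen.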
